A study of Mus musculus with 18 samples.

Results

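Chondroitin sulfate proteoglycans (CSPGs) are matrix proteins whose sulfated sugar chains stop or turn growing axons, and neurons read them through a small set of surface receptors. The 9 genes described here code for these receptors, their signalling partners and 1 of their ligands. They are *Ptprs*, *Ptprf*, *Ptprd*, *Rtn4r*, *Rtn4rl1*, *Rtn4rl2*, *Lingo1*, *Ngfr* and *Rtn4*. They were taken by name, with no measured value in the rule, although earlier results of these data were known when they were chosen. All 9 of the 9 names were found once each among the 12012 genes of the expression table.

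The table holds bulk poly-A RNA sequencing of primary hippocampal neurons from E18.5 mouse embryos, grown on a coating of CSPGs for a few days. WT_CSPG cells came from *Fibcd1* wild-type mice and KO_CSPG cells from *Fibcd1* -/- mice, a germline deletion (Fibcd1tm1Lex) bred on C57BL/6J. FIBCD1 is a membrane receptor that binds sulfated sugar chains and takes them up. Each group had 4 libraries, named A to D, each from a separate preparation of cells, and the sex and litter behind a library are not given in the sources used here. Both groups were on the coating, so the comparison is between genotypes on CSPGs. The uncoated WT and KO libraries and a further WT_CSPG library are not analysed here.

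The LAR-type receptor tyrosine phosphatases PTPσ (*Ptprs*), LAR (*Ptprf*) and PTPδ (*Ptprd*) carry immunoglobulin and fibronectin repeats outside the cell and phosphatase domains inside it. The first immunoglobulin domain holds a cluster of lysines that binds both chondroitin sulfate and heparan sulfate chains. PTPσ is the best known receptor through which CSPGs halt axons, whereas heparan sulfate on the same receptor favours growth. The Nogo receptors NgR1 (*Rtn4r*), NgR2 (*Rtn4rl2*) and NgR3 (*Rtn4rl1*) are leucine-rich repeat proteins held in the membrane by a lipid anchor. NgR1 and NgR3 also bind chondroitin sulfate chains. Having no part inside the cell, NgR1 signals through LINGO1 (*Lingo1*) and p75 (*Ngfr*) or TROY to the small GTPase RhoA and its kinase ROCK, which collapse the growth cone. *Rtn4* codes for Nogo, the ligand after which these receptors are named.

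The lysine cluster is the feature of the LAR-type receptors that bears most directly on CSPGs, so the coding bases around it are shown for these 3 genes. The sequences come from the GENCODE M21 transcripts of GRCm38 and are written 5′ to 3′ on the coding strand. Capitals mark the 4 lysine codons, in the order 2 lysines, 1 other residue, 2 lysines, which occurred 1 time in each coding sequence.
Ptprs: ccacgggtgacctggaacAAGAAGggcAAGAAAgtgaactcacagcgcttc
Ptprf: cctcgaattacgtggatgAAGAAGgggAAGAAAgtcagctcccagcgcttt
Ptprd: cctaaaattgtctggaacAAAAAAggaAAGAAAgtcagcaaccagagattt
The *Ptprs* stretch lies in exon 3 at chr17:56454877-56454927, the *Ptprf* stretch in exon 4 at chr4:118269482-118269532 and the *Ptprd* stretch in exon 3 at chr4:76246756-76246806, each on the minus strand. Of the 51 bases, *Ptprs* shared 39 with *Ptprf* and 32 with *Ptprd*, and *Ptprf* shared 37 with *Ptprd*. Although the genes are related, 99.7665% of the 50-base stretches of the longest *Ptprd* transcript matched no transcript of another gene. For *Ptprs* and *Ptprf* this was 100%. By exact sequence, most reads of these transcripts could thus be told apart. How reads were assigned is not given in the sources used here.

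The groups were checked before the members were compared. *Fibcd1* had 52 to 179 reads in the WT_CSPG libraries and 1 to 7 in the KO_CSPG libraries of the -/- genotype. Reads over the genes of the table lay between 10099564 and 11174615 in WT_CSPG and between 10541445 and 11647202 in KO_CSPG. The neuron marker list had 10 of 10 genes in the table, and its summed level was 78100 to 83241 in WT_CSPG and 78058 to 80686 in KO_CSPG, with 0 genes called by limma and 3 at an unadjusted p under 0.05. The astrocyte and radial glia list had 10 of 10 genes in the table, with a summed level of 49647 to 57569 in WT_CSPG and 54323 to 58861 in KO_CSPG. Of the oligodendrocyte lineage list, 9 of 10 genes were in the table, without *Mag*. Its summed level was 1317 to 1651 in WT_CSPG and 1979 to 2136 in KO_CSPG. *Olig1* rose from 412 ± 28.5 to 619.99 ± 30.8 and *Olig2* from 163 ± 19.7 to 283 ± 17.5 (adjusted p = 2.33e-07 and 1.2e-06, limma). In that list 5 genes had an unadjusted p under 0.05. Of the astrocyte and radial glia list 1 gene was called, *Nes*, which fell by 0.22 on the log2 scale (adjusted p = 0.00192, limma). The median log2 fold change of this list was 0.04, with 3 genes at an unadjusted p under 0.05. No gene was called by limma in the GABAergic (6 of 6 in the table), Cajal-Retzius (2 of 4), microglia (4 of 7), fibroblast (4 of 6), endothelial (1 of 5), Schwann cell and neural crest (1 of 5), proliferating cell (5 of 5) and choroid plexus (2 of 5) lists. At an unadjusted p under 0.05 they had 2, 1, 2, 0, 1, 0, 0 and 0 genes in the same order. Beside the counts of all these marker lists, 2.88% of all 12012 genes were called and 16.2% had an unadjusted p under 0.05. WT_CSPG D stood apart, with *Fibcd1* at 182 and the choroid plexus transcript *Ttr* at 3529 normalised counts, against 54.3 to 70.4 and 11.6 to 953 in the other WT_CSPG libraries. Y-linked genes were also higher in each WT_CSPG library than in each KO_CSPG library (mean log2 value 8.37 to 8.70 against 7.59 to 7.92). The part of glia, WT_CSPG D and the Y-linked difference in the values below was not tested beyond the fits given. In bulk RNA, fewer cells of a type and less RNA per cell cannot be told apart.

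Values are normalised counts, that is reads scaled by each library's size factor, and the mean is followed by the SD of 4 libraries per group. Fold changes and their 95% intervals are from limma on log2(value + 1), written as KO_CSPG over WT_CSPG. The ratio given for a gene is this limma fold change, and it can differ from the quotient of the printed means. A gene was called at a Benjamini-Hochberg adjusted p under 0.05 over the 12012 genes. Of these, 2.88% were called (346 genes, of which 131, or 1.09%, were higher and 215, or 1.79%, lower in KO_CSPG). Among the 9 members, 0 were called by limma. At an unadjusted p under 0.05 there were 3 of 9, against 16.2% of all genes: *Ptprd* at the higher side in KO_CSPG, and *Ptprs* and *Rtn4rl1* at the lower. The libraries of the groups did not overlap for 1 of the 9, *Rtn4rl1*, against 9.22% of all genes. The median log2 fold change of the members was -0.08, with 3 values above and 6 below 0, and that of all genes was 0.00.

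**Figure D1:**
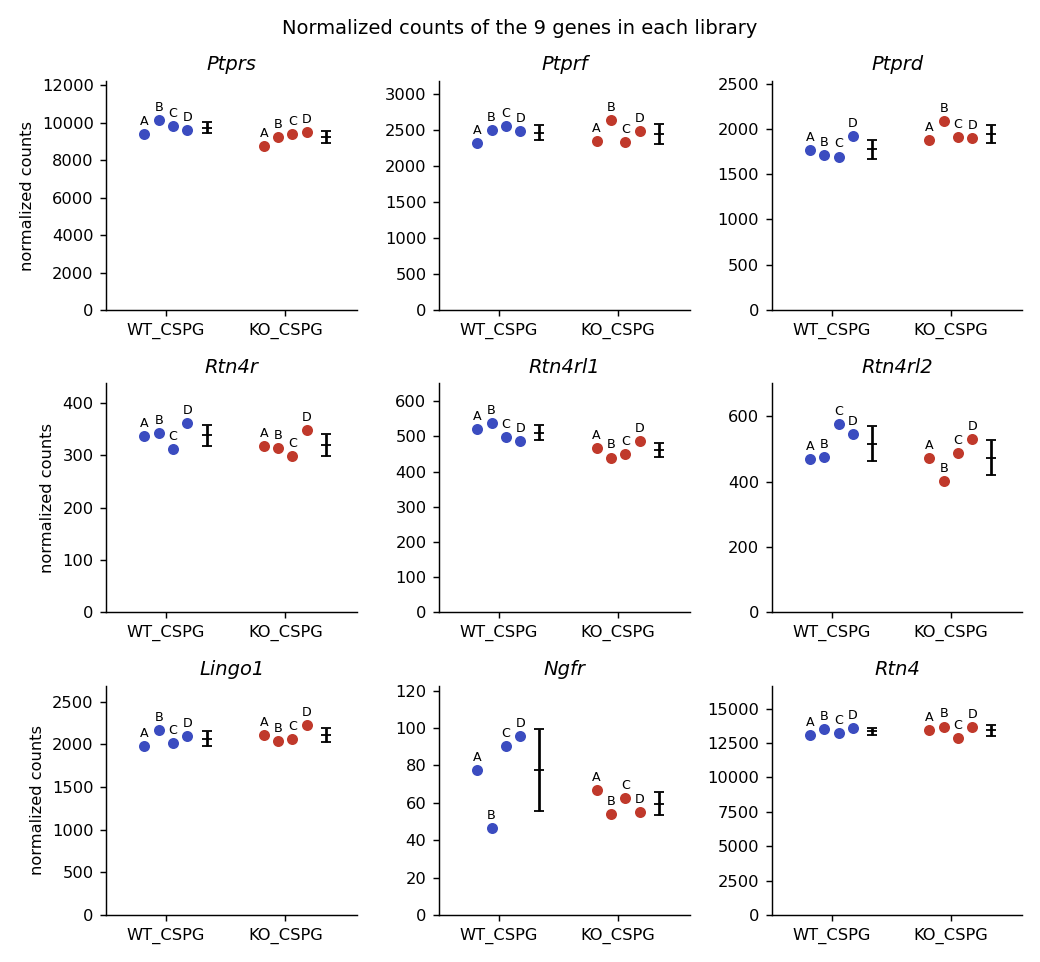
Normalised counts (y axes, 1 per gene) of the 9 genes in each WT_CSPG and KO_CSPG library, with points for libraries and bars for the mean and SD of 4. The groups overlap in every panel except *Rtn4rl1*, where the lowest WT_CSPG library (488.1) lies just above the highest KO_CSPG library (487.3).

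*Ptprs* (ENSMUSG00000013236, chr17:56412431-56476483, minus strand, 33 exons in its longest transcript) codes for PTPσ. It had 9414, 10120, 9831 and 9605 normalised counts in WT_CSPG A to D and 8778, 9248, 9391 and 9498 in KO_CSPG A to D. KO_CSPG A, B and C lay below every WT_CSPG library, and KO_CSPG D lay above WT_CSPG A, so the groups overlapped narrowly. The means were 9742 ± 304 and 9229 ± 317, a ratio of 0.947 (95% interval 0.909 to 0.987), which did not pass (adjusted p = 0.156, limma).

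*Ptprf* (ENSMUSG00000033295, chr4:118208213-118291405, minus strand, 33 exons) codes for LAR, after which the group is named. Its values were 2317, 2494, 2550 and 2475 in WT_CSPG and 2343, 2629, 2334 and 2479 in KO_CSPG. Each group held both low and high libraries. The means were 2459 ± 100 and 2446 ± 139, and the limma ratio was 0.994 with an interval of 0.941 to 1.05 (adjusted p = 0.948, limma).

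*Ptprd* (ENSMUSG00000028399, chr4:75941238-78211961, minus strand, 36 exons) codes for PTPδ, which also organises synapses by binding partners across the cleft. The WT_CSPG libraries gave 1769, 1712, 1694 and 1916 normalised counts, and the KO_CSPG libraries 1874, 2086, 1911 and 1901. WT_CSPG D was the only library of its group inside the KO_CSPG range. *Ptprd* had the smallest p of the 9 genes, with 1773 ± 101 against 1943 ± 96.5 and a ratio of 1.10 (interval 1.03 to 1.16), and it did not pass (adjusted p = 0.0862, limma). Without WT_CSPG D the log2 fold change went from 0.13 to 0.17 and passed (adjusted p = 0.0112, limma). With the level of the Y-linked genes as a covariate it was -0.02. Genotype accounted for 89.8% of the variance of that covariate, so the fit can hardly tell them apart. The genes whose log2 values across the 8 libraries lay closest to those of *Ptprd*, after each gene was centred on its own mean, were *Tmem229b* and *Mrpl10*, with root mean square differences of 0.0310 and 0.0356. They share libraries with *Ptprd*, and the likeness is a description.

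**Figure D2:**
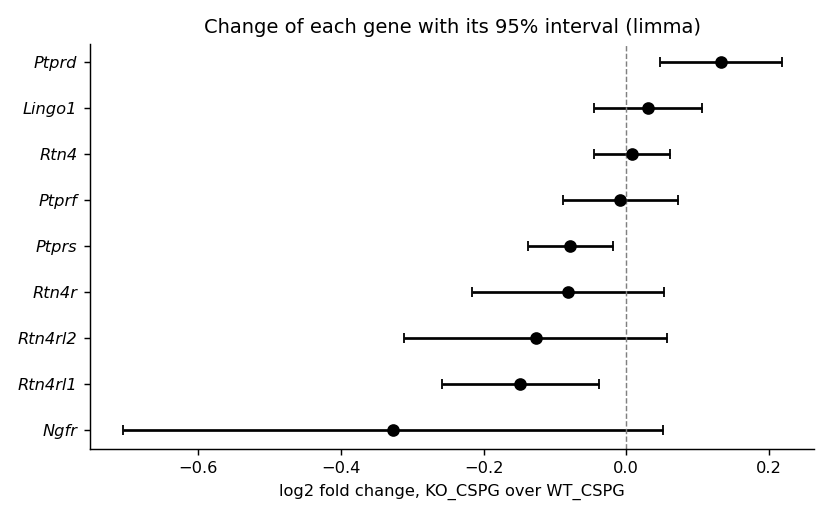
Log2 fold change of KO_CSPG over WT_CSPG (x axis) for each of the 9 genes, with points for the limma estimate and lines for its 95% interval. The intervals of *Ptprd*, *Ptprs* and *Rtn4rl1* do not include 0, and that of *Ngfr* is the widest, from -0.71 to 0.05.

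*Rtn4r* (ENSMUSG00000043811, chr16:18127642-18152408, plus strand, 2 exons) codes for NgR1, the receptor shared by Nogo, MAG and OMgp. It had 336, 342, 312 and 361 normalised counts in WT_CSPG and 317, 314, 297 and 349 in KO_CSPG. Within each group library D was the highest and library C the lowest, and the groups overlapped. The means were 338 ± 20.0 and 319 ± 21.5, and the limma ratio was 0.945 (interval 0.861 to 1.04, adjusted p = 0.596, limma).

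*Rtn4rl1* (ENSMUSG00000045287, chr11:75193783-75267769, plus strand, 2 exons) codes for NgR3, which binds chondroitin sulfate chains. Its values were 521, 537, 498 and 488 in WT_CSPG and 466, 440, 450 and 487 in KO_CSPG. All 4 KO_CSPG values were below all 4 WT_CSPG values, although KO_CSPG D and WT_CSPG D differed by less than 1 normalised count. The means were 511 ± 22.3 and 461 ± 20.7, a ratio of 0.902 (interval 0.836 to 0.974) that did not pass (adjusted p = 0.141, limma).

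*Rtn4rl2* (ENSMUSG00000050896, chr2:84871924-84886710, minus strand, 3 exons) codes for NgR2, known as a receptor for MAG. The WT_CSPG values were 468, 474, 575 and 547 and the KO_CSPG values 472, 402, 487 and 532. Libraries C and D were the higher pair in both groups. The means were 516 ± 53.2 and 473 ± 53.9, and the limma ratio was 0.916 with an interval of 0.806 to 1.04 (adjusted p = 0.524, limma). All 3 Nogo receptors thus had lower means in KO_CSPG, but none passed the test.

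*Lingo1* (ENSMUSG00000049556, chr9:56618475-56796468, minus strand, 7 exons) codes for the co-receptor LINGO1. It had 1982, 2171, 2010 and 2097 normalised counts in WT_CSPG and 2104, 2042, 2067 and 2225 in KO_CSPG. These values interleave. The means were 2065 ± 86.0 and 2110 ± 81.1, and the limma ratio was 1.02, with an interval of 0.970 to 1.08 (adjusted p = 0.758, limma).

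*Ngfr* (ENSMUSG00000000120, chr11:95568818-95587735, minus strand, 6 exons) codes for p75, the neurotrophin receptor that NgR1 can use as its signalling chain. It was the least abundant of the 9 genes, with 77.3, 46.6, 90.2 and 95.8 normalised counts in WT_CSPG and 66.9, 54.1, 62.4 and 55.0 in KO_CSPG, from 43 to 94 reads per library. WT_CSPG B was the lowest of all 8 libraries, whereas the other 3 WT_CSPG libraries lay above every KO_CSPG library. The SD was 28.4% of the mean in WT_CSPG and 10.3% in KO_CSPG. The means were 77.5 ± 22.0 and 59.6 ± 6.13, and the limma ratio was 0.797, with an interval of 0.613 to 1.04 (adjusted p = 0.395, limma). Without WT_CSPG B the log2 fold change went from -0.33 to -0.55 and passed (adjusted p = 0.0320, limma). With the Y-linked covariate, which that fit can hardly tell apart from genotype, the log2 fold change was 0.79. The residual spread of *Ngfr* on the log2 scale was larger than that of 99.2% of genes. Schwann cells are another known source of p75, and of the Schwann cell and neural crest markers *Foxd3*, *Erbb3* and *S100b* had no value in the table.

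*Rtn4* (ENSMUSG00000020458, chr11:29692947-29744331, plus strand, 9 exons) codes for the isoforms of Nogo, which also shape the endoplasmic reticulum inside neurons. It was the most abundant member, with 13094, 13508, 13226 and 13581 normalised counts in WT_CSPG and 13460, 13707, 12860 and 13705 in KO_CSPG. The groups overlapped, with means of 13352 ± 231 and 13433 ± 399. The limma ratio was 1.01 with the narrowest interval of the 9, 0.969 to 1.04 (adjusted p = 0.916, limma). Its residual spread was smaller than that of all but 6.53% of genes. *Eml6*, on the opposite strand, shares 1284 of the 6991 exon bases of *Rtn4*, and whether reads were counted by strand is not given in the sources used here. *Eml6* itself had 314 to 333 normalised counts in WT_CSPG and 309 to 344 in KO_CSPG.

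To compare genes with each other, levels were divided by the length of the longest transcript in kilobases. *Rtn4* came first with 2900 ± 66.0 normalised counts per kilobase (SD, n = 8), followed by *Ptprs* with 1384 ± 58.0 and *Lingo1* with 576 ± 22.3. *Rtn4rl2* (380 ± 42.0) and *Ptprf* (320 ± 14.7) came next, then *Ptprd* (188 ± 13.0), *Rtn4r* (170 ± 11.1) and *Rtn4rl1* (138 ± 9.47). *Ngfr* was last with 19.9 ± 5.15, and *Rtn4rl1* above it was 6.93 times as high. Neighbours in this order had ranges over the 8 libraries that did not overlap, except 2 pairs: *Rtn4rl2* and *Ptprf*, and *Ptprd* and *Rtn4r*, with the first of each pair higher in 7 of 8 libraries. NgR2 was thus the most abundant Nogo receptor transcript per length and NgR3 the least. This order rests on annotated lengths. Before division the means over the 8 libraries were 495 for *Rtn4rl2*, 486 for *Rtn4rl1* and 329 for *Rtn4r*, which puts NgR1 lowest. Counting every annotated exon base instead of the longest transcript put *Ptprd* at 81.4 per kilobase, below *Rtn4r* and *Rtn4rl1*, and 6 of 9 genes kept their place.

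**Figure D3:**
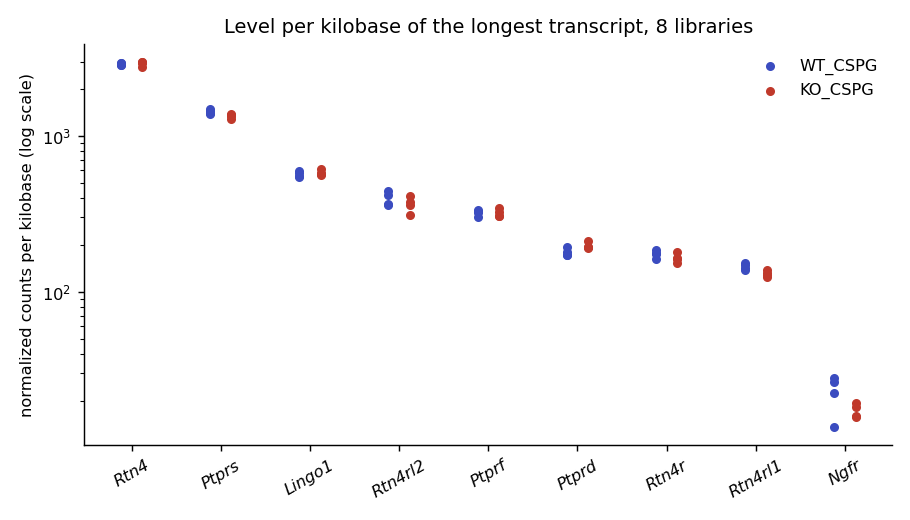
Normalised counts per kilobase of the longest transcript (log axis) of the 9 genes, with 1 point per library and the genes in order of their mean over 8 libraries. *Rtn4* and *Ptprs* stand highest and *Ngfr* lowest, and the libraries of *Rtn4rl2* and *Ptprf*, and of *Ptprd* and *Rtn4r*, overlap.

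Within the LAR-type family *Ptprs* supplied most of the level per kilobase, 73.1% to 74.7% in the WT_CSPG libraries and 70.9% to 73.3% in the KO_CSPG libraries. *Ptprf* supplied 16.3% to 17.2% and 16.3% to 18.0%. The share of *Ptprd* was 9.33 ± 0.646% in WT_CSPG and 10.5 ± 0.422% in KO_CSPG. Its ranges were 8.76% to 10.0908% and 10.0987% to 11.1%, which miss each other by a margin far below either SD. The shares are descriptions and were not tested. Among the Nogo receptors *Rtn4rl2* supplied 52.5% to 59.4% in WT_CSPG and 51.8% to 57.1% in KO_CSPG, *Rtn4r* 21.7% to 25.5% and 23.5% to 27.2%, and *Rtn4rl1* 18.6% to 22.0% and 19.0% to 21.0%. These ranges overlapped for each of the 3 genes.

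**Figure D4:**
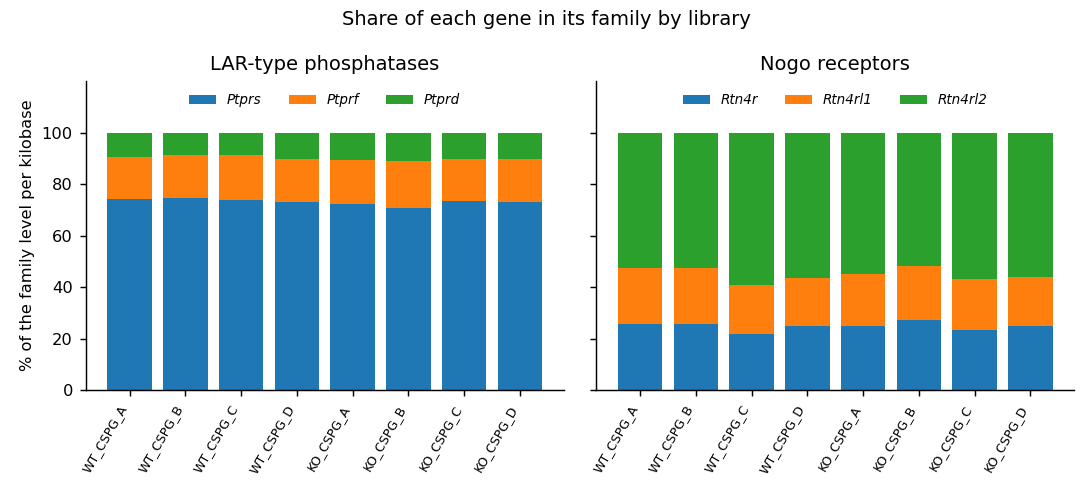
Stacked bars, 1 per library, of the percent of the family's summed level per kilobase (y axis) that each LAR-type phosphatase (left) and each Nogo receptor (right) supplied, coloured by gene. *Ptprs* holds 70.9% to 74.7% of its family in all 8 libraries and *Rtn4rl2* 51.8% to 59.4% of its own, and *Ptprd* is the smallest part of its family in each bar.

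The genes around the receptors were read from 9 lists, of which 158 of 176 genes were in the table and 11 were called (6.96%, against 2.88% of all genes), 4 higher and 7 lower in KO_CSPG. The lists were chosen with results known, so nothing is read from this share. With the Y-linked covariate 0 genes of the lists were called by limma, and 3 of all genes. Genotype accounted for 89.8% of the variance of that covariate, so the fit can hardly tell them apart. The count in the lists fell to 5 without KO_CSPG A or KO_CSPG C, 6 without WT_CSPG A, and 7 without WT_CSPG B or WT_CSPG C. *Omg*, *Egfr*, *Nrp1*, *Nptx1* and *Nptx2* passed whichever library was left out, whereas *Sdc2*, *Lrrc4c*, *Lrfn5*, *Dpysl5*, *Myh9* and *Cntn2* each missed the threshold without at least 1 library. Without the trend in limma's prior, only *Nptx1* and *Nptx2* passed. *Omg* (adjusted p = 0.0506, limma), *Egfr* (0.0868) and *Nrp1* (0.146) missed the threshold in that fit. The list of ligands of the LAR-type receptors and synaptic adhesion proteins related to them had 3 of 23 called, with a median log2 fold change of -0.00. Syndecan-2 (*Sdc2*), a heparan sulfate proteoglycan, fell from 684 ± 30.8 to 601 ± 31.2 (adjusted p = 0.0415, limma). It missed the threshold with the replicate block (adjusted p = 0.0536, limma) and with upper-quartile scaling (0.0572). The synaptic adhesion genes *Lrrc4c* and *Lrfn5* rose, from 473 ± 24.9 to 542 ± 23.3 and from 1051 ± 45.1 to 1171 ± 25.3 (adjusted p = 0.0445 and 0.0296, limma). SALM5, the product of *Lrfn5*, is a known ligand of the LAR-type phosphatases, whereas NGL-1, the product of *Lrrc4c*, is best known as a ligand of netrin-G1. Inside the cell, 0 of 15 LAR partners were called by limma and 1 had an unadjusted p under 0.05, β-catenin (*Ctnnb1*, log2 fold change -0.07, adjusted p = 0.142, limma). Other receptor-type phosphatases had 0 of 14 called by limma and 4 at an unadjusted p under 0.05, and the smallest p was that of *Ptprk* (0.12, adjusted p = 0.151, limma).

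Ligands and co-receptors of the Nogo receptors had 1 of 14 called (2.88% of all genes), with a median log2 fold change of 0.04. This was *Omg*, which codes for OMgp, a GPI-anchored ligand of NgR1 made by oligodendrocytes and neurons. *Omg* had 127, 106, 108 and 119 normalised counts in WT_CSPG and 165, 170, 167 and 138 in KO_CSPG, and no KO_CSPG library was as low as any WT_CSPG library. The log2 fold change was 0.47 (SE 0.10, adjusted p = 0.00649, limma). As given above, the oligodendrocyte lineage list was also higher in KO_CSPG, and its part in the *Omg* value was not tested. The *Tnfrsf19* gene, which codes for TROY, the alternative to p75, had 768 to 906 normalised counts in WT_CSPG and 818 to 896 in KO_CSPG (log2 fold change 0.01, adjusted p = 0.942, limma). It was named, as were *Rhoa*, *Rock1* and *Rock2*, for its place in the pathway after the values were seen. Reticulons and proteins that shape the endoplasmic reticulum had 0 of 12 called by limma and 1 at an unadjusted p under 0.05, *Atl2* (-0.13, adjusted p = 0.118, limma). Ligands and partners of p75 had 0 of 16 called by limma and 0 at an unadjusted p under 0.05, with *Kidins220* the smallest (-0.05, adjusted p = 0.363, limma).

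Downstream, 3 of 32 genes of the RhoA, ROCK and growth cone list were called (2.88% of all genes), with a median of -0.02. *Dpysl5*, a collapsin response mediator, fell from 16252 ± 587 to 15026 ± 352, and *Myh9*, the heavy chain of a non-muscle myosin, from 793 ± 35.4 to 699.9 ± 37.8 (adjusted p = 0.0194 and 0.0384, limma). For *Myh9* the highest KO_CSPG library, 747, lay above the lowest WT_CSPG library, 742. It missed the threshold with upper-quartile scaling (adjusted p = 0.0531, limma). *Egfr*, a growth factor receptor reported to relay CSPG and myelin signals, rose. It had 254, 303, 317 and 317 normalised counts in WT_CSPG and 394, 436, 376 and 374 in KO_CSPG, a log2 fold change of 0.41 (adjusted p = 0.00147, limma). With the Y-linked covariate, which that fit can hardly tell apart from genotype, the log2 fold change was -0.02. *Egfr* is also known from glial progenitors, and the part of glia in its value was not tested. *Rhoa* itself had a log2 fold change of 0.02 and *Rock1* of -0.07 (adjusted p = 0.862 and 0.539, limma). *Rock2* was lower in each KO_CSPG library, 1295 to 1442, than in each WT_CSPG library, 1458 to 1562, and just missed the threshold (adjusted p = 0.0548, limma). Proteases that cut the receptors had 0 of 14 called by limma and 2 at an unadjusted p under 0.05.

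The list drawn up as other chondroitin sulfate-binding neuronal proteins had 4 of 19 called, against 2.88% of all genes. Binding by the listed proteins was not measured here. Each of the 4 was lower in KO_CSPG. Of all genes 1.79% were called lower, which is 215 of the 346 calls. At an unadjusted p under 0.05 there were 9 (16.2% of all genes), and the median log2 fold change was -0.06. Like the other lists it was chosen with results known, so nothing is read from these counts. The neuronal pentraxins, secreted proteins that cluster glutamate receptors, fell most: *Nptx1* from 1001 ± 94.0 to 684 ± 38.9 and *Nptx2* from 176 ± 9.58 to 120 ± 15.4 (adjusted p = 1.59e-05 and 0.00138, limma). *Nptx1* lay between 884 and 1083 in WT_CSPG and between 652 and 740 in KO_CSPG. *Nrp1*, the neuropilin that receives semaphorin 3A, fell from 6606 ± 273 to 5814 ± 255 (adjusted p = 0.00235, limma). *Cntn2*, the axonal adhesion protein TAG-1, fell from 10715 ± 717 to 9280 ± 415 (adjusted p = 0.0341, limma).

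**Figure D5:**
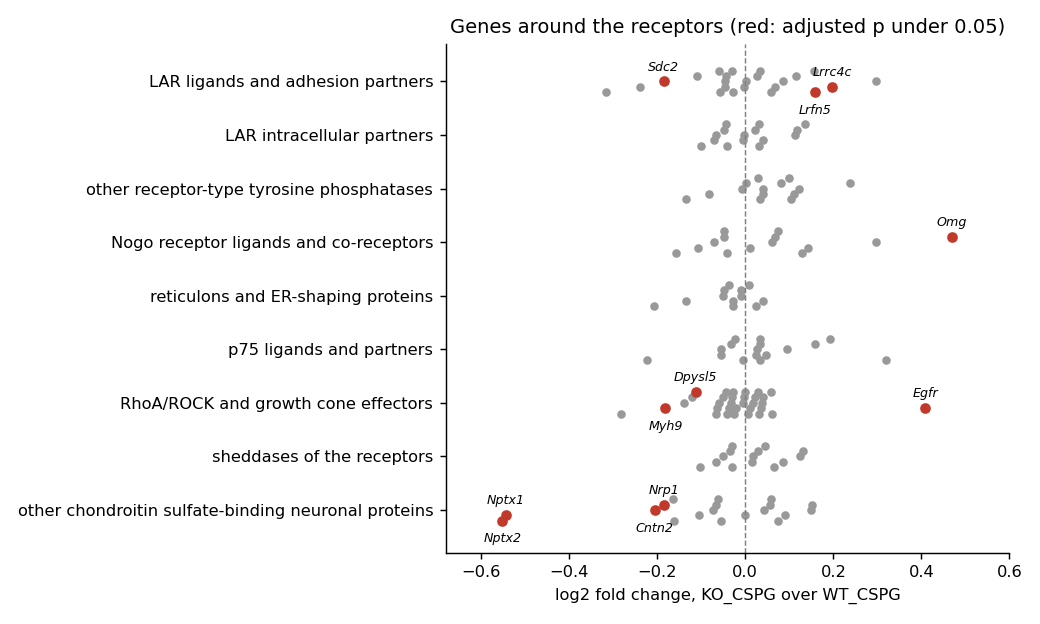
Log2 fold change of KO_CSPG over WT_CSPG (x axis) for the genes of the 9 lists around the receptors (rows), 1 point per gene, with called genes in red and named. The 4 called genes of the bottom row, the list drawn up as other chondroitin sulfate-binding neuronal proteins, lie below 0. *Omg* and *Egfr* are the called genes farthest above 0.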

How the data were processed

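RNA was isolated from the cultures, enriched for poly-A and sequenced as single reads at a facility. The aligner, the counting program and the annotation are not given in the sources used here, and the submitters' processing notes name DESeq2 and mm10. The authors deposited a normalised signal per library, in which reads were scaled by size factors. Values were whole multiples of 1 step per library to within 5.82e-11 of a read, and the reads given are values divided by this step, taken to be 1 read. The lowest gene mean was 40.7. The deposited table also holds the authors' log2 fold change, its standard error, the Wald score, the p-value and the adjusted p-value, and none of these was used.

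The 4 WT_CSPG and 4 KO_CSPG libraries in the table, of 18 labelled, were compared with limma 3.58.1 in R 4.3.3 on log2(value + 1), with a trended and robust prior, over 12012 genes, two-sided, with Benjamini-Hochberg adjustment. The scripts were tested on simulated data. A pseudocount understates the change of low genes. The p-values measure only the spread between these preparations, which may be partly technical. The members and lists were chosen with earlier results of these data known. Named genes were the 9 members, called genes of the lists, the gene of smallest p in a list with no call, *Fibcd1*, called and defining markers, the 3 genes closest to the member of smallest p, and a gene overlapping a member. Some genes this rule names are not reported here. Of the gene identifiers 11991 matched GENCODE M21 on GRCm38, from which lengths and sequences were taken. Coordinates are the table's, counted from 1. Pairs of libraries of 1 group had a chi-square per degree of freedom of 1.83 to 2.90, more than sampling noise alone gives, and each was counted once.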

Additional observations from a re-analysis of the deposited data

Results flagged for a closer look

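None of the 9 genes had a library that stood far from the other 3 of its group by Dixon's ratio. Among 40 groups examined, 2 for each of 20 named genes, 3 did, and chance gives about 2. *Lrrc4c* had 435 normalised counts in WT_CSPG B against 483 to 488 in the other WT_CSPG libraries. *Omg* had 138 in KO_CSPG D against 165 to 170 in the other KO_CSPG libraries. *Nrp1* had 6200.1 in WT_CSPG D against 6713 to 6790 in the other WT_CSPG libraries.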

How the results depend on the processing

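The count of 346 called genes was 80 without the trend (28 higher, 52 lower), 3 with the Y-linked covariate (1 higher, 2 lower), and 186 (without KO_CSPG A) to 576 (without WT_CSPG D) when 1 library was left out, 62 to 286 of them higher and 124 to 290 lower. It also moved by more than 1.5 times without WT_CSPG A (226), WT_CSPG C (202) or KO_CSPG C (204). Upper-quartile scaling called 182 higher and 178 lower, against 131 and 215. The 11 calls in the pathway lists became 2 without the trend (*Nptx1* and *Nptx2*), 0 with the Y-linked covariate and 5 to 13 with a library left out. The 3 in the marker lists became 6 without the robust prior, 7 with the replicate block, 0 with the Y-linked covariate and 3 to 7 with a library left out (7 without WT_CSPG D). For the 9 genes, 0 were called in each alternative, except 1 each without WT_CSPG B (*Ngfr*) and without WT_CSPG D (*Ptprd*). Genotype accounted for 89.8% of the variance of the Y-linked level, so both can hardly be told apart in that fit, which gave log2 fold changes of -0.022 for *Ptprd*, 0.31 for *Rtn4rl2*, -0.030 for *Lingo1*, 0.79 for *Ngfr*, -0.074 for *Rtn4* and -0.022 for *Egfr*. Other changes of sign were near 0: *Ptprf* was 0.0041 with upper-quartile scaling and -0.044 to 0.014 with a library left out, and *Rtn4* was -0.0015 to 0.029. With a library left out *Ptprd* was 0.10 to 0.17, *Ngfr* -0.55 to -0.21, *Ptprs* -0.09 to -0.05, *Rtn4r* -0.12 to -0.05, *Rtn4rl1* -0.18 to -0.12, *Rtn4rl2* -0.19 to -0.05 and *Lingo1* 0.0049 to 0.06. The cause of these shifts was not tested.

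The order by level kept 6 of 9 places with the table's lengths and 7 within WT_CSPG B and within KO_CSPG B. Deviations from the group means correlated at -0.07, 0.10, 0.28 and -0.01 between the WT_CSPG and KO_CSPG libraries of letters A to D. Libraries of different letters were not compared, so whether the letters pair the libraries is not known. A replicate block called 429 genes and 0 members. Pseudocounts of 0.1 and 10 called 346 and 347 genes, and leaving out genes with a mean below 100, *Ngfr* among them, 342. Leaving out the X and Y chromosomes and pseudogenes, chosen after seeing the data, called 327. The count models and their scaling that had been planned were not run, because a separate automated check of the table did not recover the whole-read steps, so read numbers rest on the step found here. Of the named genes called, *Sdc2* was lost with the replicate block, and *Sdc2* and *Myh9* with upper-quartile scaling. Depth limits *Ngfr* most, at 43 to 94 reads per library.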
